A study of Mus musculus with 6 samples.

Results

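The aminoacyl-tRNA synthetases are the enzymes that attach each amino acid to its tRNA, and their genes were followed here in sorted double negative thymocytes of 2 genotypes. The members are the genes of the cytosolic synthetases, those of the mitochondrial synthetases, and the 3 genes of the non-enzymatic proteins that hold several cytosolic synthetases together (Aimp1, Aimp2 and Eef1e1). They were chosen by gene symbol alone, not by any measured value. Of 40 genes that the symbols name, 38 were analysed here, out of 18193 genes with a probe set of a single symbol, and they carry 76 probe sets. They comprise 17 cytosolic genes, 2 genes that serve both compartments (Gars and Kars), 16 mitochondrial genes and the 3 scaffold genes. Mars2, the mitochondrial methionyl enzyme, was too dim on both of its probe sets to be tested (between 2.00 and 19.2 on the 6 arrays). The other 37 genes were tested.

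The arrays compared are 3 labelled as double knockout of Egr1 and Egr3, and 3 labelled wild type, where the labels number a separate animal for every array. Egr1 and Egr3 code for zinc finger proteins of the EGR family, which T cell receptor signals induce. The labels give neither strain, age nor sex, nor the design of the disrupted alleles, and they describe flow-sorted double negative thymocytes of amplified RNA while the titles speak of whole thymus. The p-values measure the spread between these animals.

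Every protein synthesised in the cytosol draws on tRNAs charged by cytosolic synthetases, whereas the proteins encoded by mitochondrial DNA are made with a separate, nuclear-encoded set that is imported into the organelle. In mammals a group of cytosolic synthetases is bound in the multisynthetase complex, whose scaffold is formed by AIMP1 (p43), AIMP2 (p38) and the product of Eef1e1 (p18, also called AIMP3). Synthetase genes are known targets of the amino acid response through the transcription factor ATF4 and are counted among the growth genes that MYC activates. Dividing pre-T cells have a high demand for protein synthesis.

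The labels were checked first. Egr1 read 1757, 1696 and 1221 on the arrays labelled double knockout and 508, 509 and 455 on those labelled wild type, so it was higher where it should have been disrupted. The labels do not say which part of the gene was disrupted, so whether this probe set lies outside it is unknown, and every direction below is drawn from the labels as given. Egr3, on the brighter of its probe sets, had 34.4, 45.8 and 32.9 on the arrays labelled double knockout and 92.2, 83.1 and 30.8 on those labelled wild type (change -0.59, limma adjusted p = 0.528 over all probe sets). Its other probe set had 12.5, 32.1 and 55.4 against 34.2, 30.5 and 30.5 (change -0.07, adjusted p = 0.964). Of 10 double negative thymocyte markers, 10 lay above the brightest bacterial control probe set on all 3 arrays labelled double knockout and 8 on all 3 labelled wild type, and their summed intensity was 15530 to 17590 against 25040 to 35190. They did not move alike: Ptcra, Il2ra, Dntt and Notch1 were lower on every array labelled double knockout. Kit was higher on every such array (62.3 to 79.7 against 24.1 to 47.0), and for the other markers the groups overlapped. Of the 3 coreceptor genes, Cd4 stayed between 3.15 and 6.08 on all arrays, below the brightest bacterial control. Cd8a (68.5 to 197) and Cd8b1 (65.9 to 137) lay above that control on all arrays. Granulocyte markers were present as well: their summed intensity was 20740 to 30170 on the arrays labelled double knockout, and 12430, 27660 and 439.8 on wild type replicates 1, 2 and 3. Of 16 granulocyte markers, 13 lay above the control on all arrays labelled double knockout and 5 on all labelled wild type. Other markers differed too. The summed B cell markers were 2109 to 2354 on the arrays labelled double knockout and 1007 to 1676 on those labelled wild type. Most of that sum was Cd79b (1782 to 1922 against 571 to 1081), and the groups overlapped for each of the other B cell markers. Of 7 NK cell markers, Nkg7 (1243 to 2423 against 162 to 279) and Klrd1 (657 to 1132 against 147 to 326) were higher on every array labelled double knockout. The groups overlapped for the other NK cell markers and for the sum of all of them (14150 to 15060 against 11410 to 16280). The summed erythroid markers were 283.7 to 364.2 on the arrays labelled double knockout and 293.7, 38.5 and 3228 on wild type replicates 1, 2 and 3. Most of the 3228 was Alas2 (3142), while Hba-a1 (39.0) and Klf1 (46.3) were low there. The part of these cell types in the results below was not tested. Wild type replicate 3 thus stands apart in granulocyte markers and in the erythroid marker Alas2, and results that rest on it are given with and without it. The ratio of 3' to 5' signal of the Gapdh control probe sets, a sign of RNA quality, was 5.27, 8.56 and 4.95 on the arrays labelled double knockout and 10.1, 4.83 and 7.36 on those labelled wild type, so the groups overlapped. For Actb it was 5.99, 4.98 and 6.35 against 8.94, 5.55 and 5.64, and wild type replicate 1 had the highest ratio for both.

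The promoters of genes on which the results turn are shown first, since the same genes return with their values below. Each is the 250 bases before the RefSeq transcript start, on GRCm38.p6, 5' to 3' on the gene's own strand. Aimp2, Eef1e1 and Farsb are members that fell, and Aars, Gars and Tars are the members whose window holds the C/EBP-ATF response element, the sequence bound by ATF4 with a C/EBP partner. The motifs were chosen after the values were seen, and a match is a description only. Capitals mark matches, on either strand, to CACGTG (the E-box bound by MYC and MAX), TGATGNAA (the C/EBP-ATF response element) or GCGNGGGCG (the binding site of EGR proteins).
Aimp2, chr5:143909840-143910089, minus strand: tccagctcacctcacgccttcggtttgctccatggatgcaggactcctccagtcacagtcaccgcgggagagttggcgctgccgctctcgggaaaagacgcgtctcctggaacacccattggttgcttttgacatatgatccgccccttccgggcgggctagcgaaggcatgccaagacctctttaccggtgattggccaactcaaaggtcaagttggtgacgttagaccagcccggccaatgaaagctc
Eef1e1, chr13:38659029-38659278, minus strand: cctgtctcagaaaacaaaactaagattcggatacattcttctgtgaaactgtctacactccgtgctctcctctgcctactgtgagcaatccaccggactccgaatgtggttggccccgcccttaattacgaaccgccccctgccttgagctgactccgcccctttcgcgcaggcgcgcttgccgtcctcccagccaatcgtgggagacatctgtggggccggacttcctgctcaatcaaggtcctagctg
Farsb, chr1:78488898-78489147, minus strand: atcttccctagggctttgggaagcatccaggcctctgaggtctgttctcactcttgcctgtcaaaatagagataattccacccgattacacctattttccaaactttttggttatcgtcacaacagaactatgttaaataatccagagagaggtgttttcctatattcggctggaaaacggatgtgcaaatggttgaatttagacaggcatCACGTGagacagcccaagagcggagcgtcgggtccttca
Aars, chr8:111033592-111033841, plus strand: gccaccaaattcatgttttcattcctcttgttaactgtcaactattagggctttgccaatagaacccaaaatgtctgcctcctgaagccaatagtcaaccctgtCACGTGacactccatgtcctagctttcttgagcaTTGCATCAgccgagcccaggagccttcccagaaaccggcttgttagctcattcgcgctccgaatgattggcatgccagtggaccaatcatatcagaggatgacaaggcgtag
Gars, chr6:55037751-55038000, plus strand: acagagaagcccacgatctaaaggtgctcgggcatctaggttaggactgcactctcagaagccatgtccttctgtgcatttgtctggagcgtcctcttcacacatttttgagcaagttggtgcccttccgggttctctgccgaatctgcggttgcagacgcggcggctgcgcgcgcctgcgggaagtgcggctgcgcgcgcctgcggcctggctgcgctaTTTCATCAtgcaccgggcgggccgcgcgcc
Tars, chr15:11399659-11399908, minus strand: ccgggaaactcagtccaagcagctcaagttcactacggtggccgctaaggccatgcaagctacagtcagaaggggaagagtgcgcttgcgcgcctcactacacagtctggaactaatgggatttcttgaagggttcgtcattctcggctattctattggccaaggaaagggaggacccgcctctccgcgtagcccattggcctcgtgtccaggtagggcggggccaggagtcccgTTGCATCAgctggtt

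The table of promoters held 32 windows for 30 of the 40 genes. The E-box was found in 3 of the 32 (9.38%), those of Aars, Farsb and Iars, against 6.02% of all 32851 windows in the table. The C/EBP-ATF response element was found in 3 (9.38%, against 3.45% of all), and the EGR site in 1 (3.12%, against 4.70% of all), that of Vars2. None of these matches overlapped another. Neither Aimp2 nor Eef1e1 had a match to any of the 3 motifs, which says only that these letters are not in this window.

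Across the 37 genes tested, 4 were lower on the arrays labelled double knockout and 0 were higher, at an adjusted p of 0.05 in limma's fit over all 13187 genes (18 of the 37 had an unadjusted p under 0.05, against 20.9% of all genes). Of all genes tested, 6.98% were called, 2.84% lower and 4.14% higher. The 4 genes were the scaffold genes Aimp2 and Eef1e1 and the cytosolic synthetase genes Wars and Farsb. The change had a negative sign in 29 of the 37, against 51.0% of all genes. The median log2 change was -0.59 over 17 cytosolic genes, -0.28 over 15 mitochondrial genes and -0.01 over all genes. A log2 change is taken throughout as the arrays labelled double knockout minus those labelled wild type, on the scale of intensity plus 16. These are bulk samples, in which fewer cells of a kind and less RNA for each cell cannot be told apart.

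**Figure D1:**
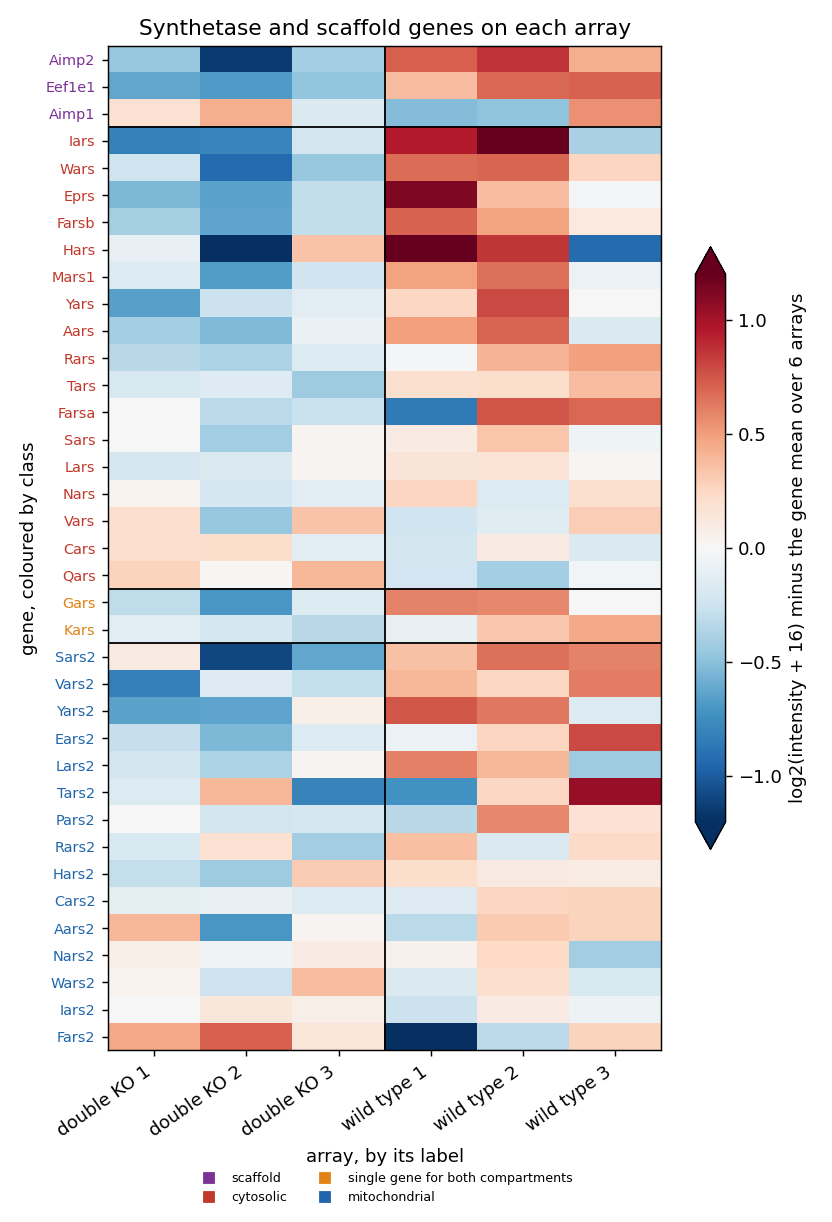
Heat map of the 37 tested genes (rows, coloured by class) on the 6 arrays (columns, by label), as log2 of intensity plus 16 minus the gene's own mean over the arrays. Aimp2 and Eef1e1 are below their mean on all 3 arrays labelled double knockout and above it on all 3 labelled wild type, while Iars and Hars on wild type replicate 3 are as low as on arrays labelled double knockout.

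Of the 3 scaffold genes, Aimp2 and Eef1e1 fell and Aimp1 did not pass. Aimp2 encodes the protein at the core of the multisynthetase complex. On its brighter probe set Aimp2 had 702, 455 and 744 on the arrays labelled double knockout, against 1680, 1732 and 1355 on those labelled wild type. All 3 arrays labelled double knockout lay below all 3 labelled wild type. The log2 change was -1.35 (SE 0.26, n = 3 and 3, limma adjusted p = 0.0123), and the other Aimp2 probe set, at 279, 181 and 298 against 636, 770 and 759, gave -1.50 (SE 0.27, limma adjusted p = 0.00858 over all probe sets tested).

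Eef1e1, whose product p18 binds the methionyl enzyme within the complex, showed the tightest replicates of the 4 genes on the arrays labelled double knockout. It read 571, 581 and 650 there, against 1205, 1395 and 1503 on the arrays labelled wild type. Its log2 change was -1.18 (SE 0.22, limma adjusted p = 0.00986), and the groups lay far apart. Leaving out double knockout replicate 1 ended both calls, with limma adjusted p = 0.0522 for Aimp2 and 0.0760 for Eef1e1, although the changes were then -1.45 and -1.17. The Aimp2 call was also lost without wild type replicate 2 (adjusted p = 0.0636).

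Aimp1, whose product is also released from cells as the precursor of a cytokine, did not share this pattern. It read 2527, 3187 and 2012 on the arrays labelled double knockout and 1616, 1543 and 3355 on those labelled wild type. The wild type arrays spanned the others, with replicates 1 and 2 below and replicate 3 above all of them. Its change was 0.30 (SE 0.30, 95% interval -0.37 to 0.96, limma adjusted p = 0.644). Without wild type replicate 3 it was 0.65 (SE 0.22, limma adjusted p = 0.0708), still short of the threshold.

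**Figure D2:**
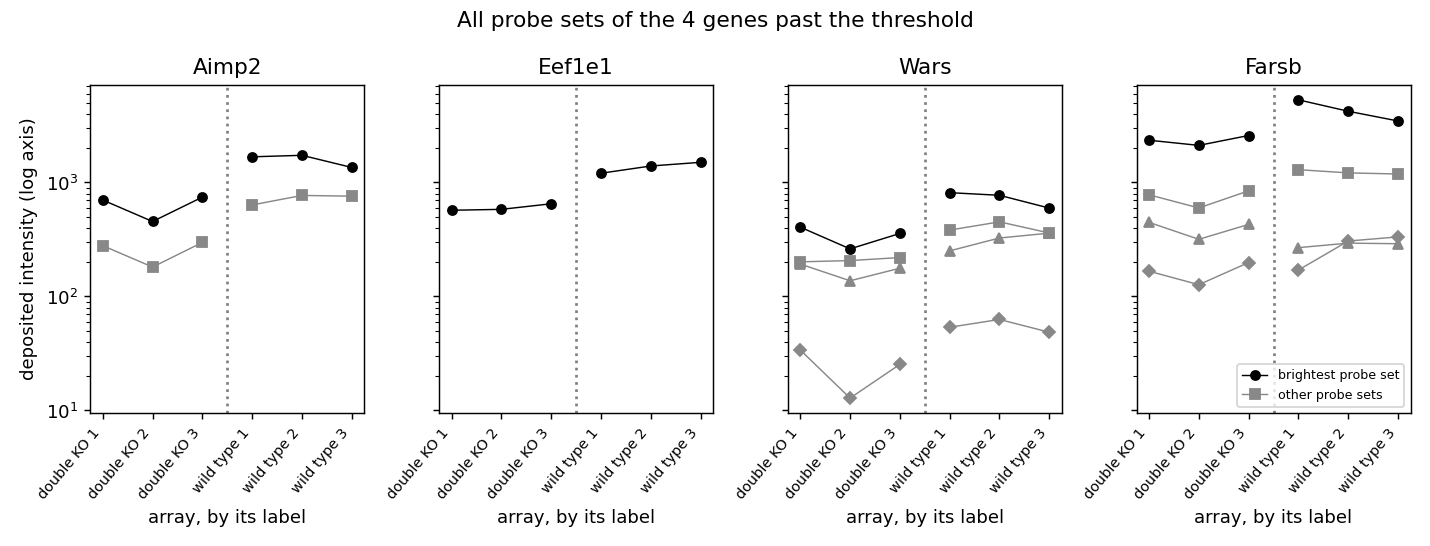
Deposited intensity (log axis) of every probe set of Aimp2, Eef1e1, Wars and Farsb on the 6 arrays, with the brightest probe set of each gene in black and the others in grey. The probe sets of Aimp2 and Wars are all lower on the arrays labelled double knockout, while 1 of the 4 Farsb probe sets is higher there (317 to 447 against 268 to 294).

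Among the cytosolic synthetases, Wars and Farsb fell and none rose. Wars, the tryptophanyl enzyme, known as an interferon-induced gene, read 406, 262 and 357 on the arrays labelled double knockout, against 814, 772 and 596 on those labelled wild type. The groups did not overlap, and the log2 change was -1.08 (SE 0.26, limma adjusted p = 0.0323). The identifier of this probe set marks probes that may also match other sequences, and with such probe sets put last the change was -0.84 and no longer passed (limma adjusted p = 0.0797). Its 3 other probe sets were lower too, with changes of -0.89, -0.84 and -0.88, none of which passed on its own (limma adjusted p = 0.0539, 0.0929 and 0.107 over all probe sets tested).

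Farsb encodes the beta subunit of the cytosolic phenylalanyl enzyme, a tetramer with the product of Farsa. The brightest Farsb probe set, of the same kind as that of Wars, had 2348, 2116 and 2583 on the arrays labelled double knockout, against 5309, 4216 and 3464 on those labelled wild type. The change was -0.88 (SE 0.22, limma adjusted p = 0.0342) without overlap. The other probe sets of Farsb did not move alike: 2 gave -0.75 (SE 0.24) and -0.65 (SE 0.31), and another, which read 447, 317 and 429 against 268, 294 and 290, gave 0.43 (SE 0.25). None of these 3 passed. The direction of Farsb therefore depends on which probe set is read.

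Farsa, the alpha subunit, did not pass. It read 338, 284 and 285 on the arrays labelled double knockout and 189, 566 and 573 on those labelled wild type, with wild type replicate 1 below all other arrays (change -0.40, SE 0.39). Its dimmer probe sets gave -0.82 (SE 0.31) without overlap, and -0.24 (SE 0.25) and 0.31 (SE 0.28) with overlap, and none passed. The calls of Wars and Farsb were each lost when any array other than wild type replicate 3 was left out, with limma adjusted p between 0.0854 and 0.122 for Wars and between 0.0732 and 0.149 for Farsb.

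Of the other 15 cytosolic genes, 12 had a negative change without passing the test. Among those with the largest size was Iars, the isoleucyl enzyme, which read 400, 431 and 628 on the arrays labelled double knockout and 1466, 1683 and 557 on those labelled wild type (change -1.21, SE 0.39, limma adjusted p = 0.0941). Wild type replicates 1 and 2 lay above all other arrays, and wild type replicate 3 lay among the arrays labelled double knockout. The dimmer Iars probe set gave -0.65 (SE 0.35), also with overlap. Eprs, which encodes a fused glutamyl and prolyl enzyme, read 577, 573 and 704 against 1952, 1071 and 859, without overlap (change -0.98, SE 0.30, limma adjusted p = 0.0755). That was its brightest probe set, and on its others the groups overlapped. These gave -0.17 (SE 0.42), -0.61 (SE 0.29) and, where the signal was too dim to be tested, -0.03 (SE 0.28).

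Hars, the histidyl enzyme, varied most between replicates. On the brighter probe set it had 2252, 882 and 3122 on the arrays labelled double knockout and 6385, 4253 and 1302 on those labelled wild type (change -0.85, SE 0.57). The other Hars probe set ran the opposite way from array to array, at 998, 1396 and 537 against 599, 726 and 1490 (change 0.05, SE 0.39): the arrays that were low on the brighter probe set, double knockout replicate 2 and wild type replicate 3, were the high ones here.

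Smaller changes without overlap and without passing were seen for Mars1, the methionyl enzyme (-0.72, SE 0.26), Yars, the tyrosyl enzyme (-0.70, SE 0.27), Rars, the arginyl enzyme (-0.59, SE 0.23), and Tars, the threonyl enzyme (-0.52, SE 0.22). Rars read 688, 709 and 799 on the arrays labelled double knockout against 901, 1133 and 1269 on those labelled wild type, and Tars read 563, 616 and 489 against 776, 730 and 863. For these 2 genes, unlike Iars and Hars, wild type replicate 3 was the highest array. Aars, the alanyl enzyme, gave -0.68 (SE 0.28) with overlap, and its dimmer probe set gave -0.48 (SE 0.26) without overlap and did not pass. On their brightest probe sets, 7 of the 17 cytosolic genes were lower without overlap between the groups, against 12.8% of all genes. In the other direction, 1 was higher without overlap, against 13.4% of all genes.

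The gene that was higher without overlap was Qars, the glutaminyl enzyme of the complex. It read 5189, 4599 and 5804 on the arrays labelled double knockout and 3830, 3147 and 4316 on those labelled wild type (change 0.45, SE 0.20, limma adjusted p = 0.213). A second bright Qars probe set gave 0.84 (SE 0.30), while a dimmer 1 gave -0.30 (SE 0.24), and none of them passed. The changes of Lars, Nars and Sars, the leucyl, asparaginyl and seryl enzymes, were -0.23, -0.19 and -0.26, and those of Vars and Cars, the valyl and cysteinyl enzymes, were 0.06 and 0.19. Their 95% intervals reached down to -0.76 (Sars) and up to 0.73 (Cars). The dimmer probe set of Nars gave -0.47 (SE 0.23) without overlap and did not pass, and that of Sars gave -0.06 (SE 0.22). The dimmer Cars probe set, too dim to be tested, gave -0.74 (SE 0.33) with overlap.

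**Figure D3:**
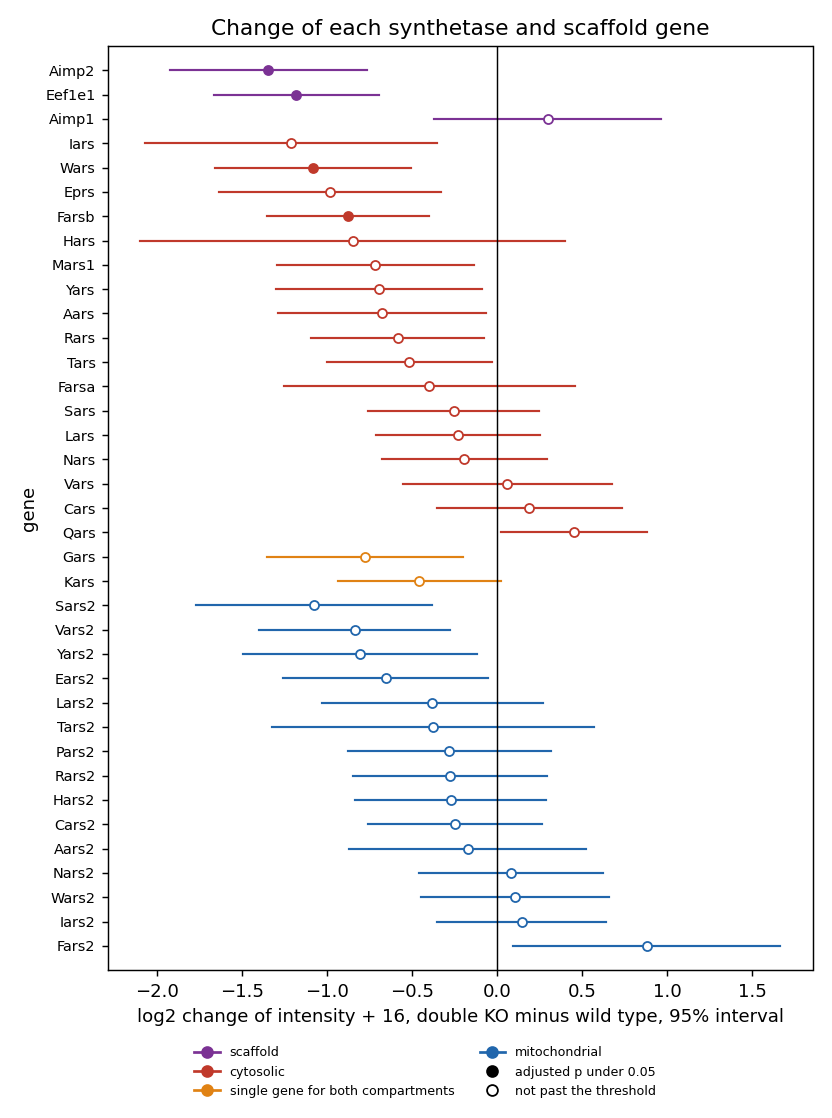
Log2 change of each of the 37 genes (points) with its 95% interval from limma (lines), grouped by class, with filled points for an adjusted p under 0.05. The 4 filled points are Aimp2 (-1.35), Eef1e1 (-1.18), Wars (-1.08) and Farsb (-0.88), and the open points of the mitochondrial genes run from -1.07 (Sars2) to 0.88 (Fars2).

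Leaving out wild type replicate 3 moved the count of cytosolic genes called. Without it, 8 of 17 cytosolic genes were lower and 0 higher at an adjusted p of 0.05, against 7.22% of all genes lower and 7.24% higher in the same fit. Aars (-0.93, SE 0.24), Eprs (-1.24, SE 0.26), Hars (-1.52, SE 0.41), Iars (-1.71, SE 0.25), Mars1 (-0.93, SE 0.23) and Yars (-0.87, SE 0.27) then joined Wars and Farsb, with limma adjusted p between 0.0011 and 0.0481 for the 8. Gars, the glycyl enzyme, joined them (-0.97, SE 0.24, adjusted p = 0.0188). A fit with the mean log2 level of the granulocyte markers of each array as a covariate called the same 8 cytosolic genes lower, against 6.4% of all genes lower and 6.34% higher. That mean was 5.18 on wild type replicate 3 and 7.73 to 8.70 on the other arrays. The covariate thus mostly separates wild type replicate 3 from the rest, and calling the same 8 genes is not a separate result. With any other array left out, 0 cytosolic genes were called by limma. The shares of all genes called were then 0.705% lower and 1.41% higher without double knockout replicate 1, 1.23% and 2.35% without double knockout replicate 2, and 1.3% and 2.33% without double knockout replicate 3. They were 1.5% lower and 2.43% higher without wild type replicate 1, and 1.15% and 2.85% without wild type replicate 2.

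The cytosolic enzymes were also divided by membership in the multisynthetase complex. This grouping comes from textbook knowledge and was made after the values were seen. The median change was -0.59 for the 7 tested enzymes of the complex (Eprs, Iars, Lars, Mars1, Qars, Rars and Kars) and -0.60 for the 12 that are not known as its members, and the difference was not tested. Within the complex, the enzymes ranged from -1.21 (Iars) to 0.45 (Qars), and the scaffold genes from -1.35 (Aimp2) to 0.30 (Aimp1).

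Gars and Kars each encode, from a single gene, both the cytosolic and the mitochondrial form of an enzyme. Gars read 471, 377 and 532 on the arrays labelled double knockout, against 933, 855 and 602 on those labelled wild type (change -0.78, SE 0.26, limma adjusted p = 0.108). Kars, the lysyl enzyme, read 1742, 1763 and 1555 against 1894, 2338 and 2713 (change -0.46, SE 0.22, limma adjusted p = 0.264). Both were lower without overlap and neither passed.

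None of the 15 mitochondrial genes tested passed the threshold in limma's fit, while 5 had an unadjusted p under 0.05, against 20.9% of all genes. Sars2, the mitochondrial seryl enzyme, had a change whose size depended on the offset. It was dim, with 46.1, 12.6 and 22.3 on the arrays labelled double knockout and 61.0, 72.8 and 73.6 on those labelled wild type (change -1.07, SE 0.32, limma adjusted p = 0.0677). With an offset of 1 its change was -1.53 and with an offset of 64 it was -0.57, and with array weights it was -0.66. Of its 3 arrays labelled double knockout, replicates 2 and 3 read below the brightest bacterial control of the same array (24.3 and 25.6), so the level there is not measured above background. Without double knockout replicate 1, the array on which it was brightest of the 3, Sars2 passed the threshold (change -1.40, limma adjusted p = 0.0475) and was the 1 mitochondrial gene called.

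Vars2, the mitochondrial valyl enzyme, read 45.8, 87.8 and 75.3 on the arrays labelled double knockout, against 134, 109 and 155 on those labelled wild type, without overlap (change -0.84, SE 0.26, limma adjusted p = 0.0783). Its second probe set gave -0.76 (SE 0.35). Ears2, the mitochondrial glutamyl enzyme, also did not overlap, with 48.4, 40.9 and 55.2 against 61.8, 74.6 and 123 (change -0.65, SE 0.27). Sars2, Vars2 and Ears2 were the 3 of 15 mitochondrial genes lower without overlap, and 0 were higher without overlap, against 12.8% and 13.4% of all genes. Yars2, the mitochondrial tyrosyl enzyme, gave -0.81 (SE 0.31) with overlap, since wild type replicate 3 at 237 lay below the 281 of double knockout replicate 3. Its dimmer probe set, which the counts leave out, gave -0.52 (SE 0.24) without overlap and did not pass.

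Fars2, the mitochondrial phenylalanyl enzyme, which acts as a single chain unlike its cytosolic counterpart, had a change of positive sign. It read 778, 995 and 638 on the arrays labelled double knockout and 237, 433 and 699 on those labelled wild type, where wild type replicate 3 overlapped the other group (change 0.88, SE 0.36, limma adjusted p = 0.184). Its second probe set gave 0.68 (SE 0.29), with 330, 384 and 359 against 144, 223 and 301. Without wild type replicate 3 its change of 1.23 was past the threshold (limma adjusted p = 0.0175), and Yars2 was then lower (-1.09, adjusted p = 0.0203).

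The other 10 mitochondrial genes had changes between -0.38 and 0.14, and none had groups without overlap. Those with a negative change were Lars2, Tars2, Pars2, Rars2, Hars2, Cars2 and Aars2, and those with a positive change were Nars2, Wars2 and Iars2. Another tested probe set had the opposite sign for Lars2 (0.54), Hars2 (0.22), Cars2 (0.43), Wars2 (-0.31) and Iars2 (-0.17). Lars2 and Cars2 also had a further probe set of the same sign, as did Tars2 and Nars2. Without wild type replicate 3 the sign turned for Tars2 (0.05) and Nars2 (-0.10). Tars2, the mitochondrial threonyl enzyme, was the most scattered, with 589, 929 and 381 on the arrays labelled double knockout and 411, 765 and 1419 on those labelled wild type.

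**Figure D4:**
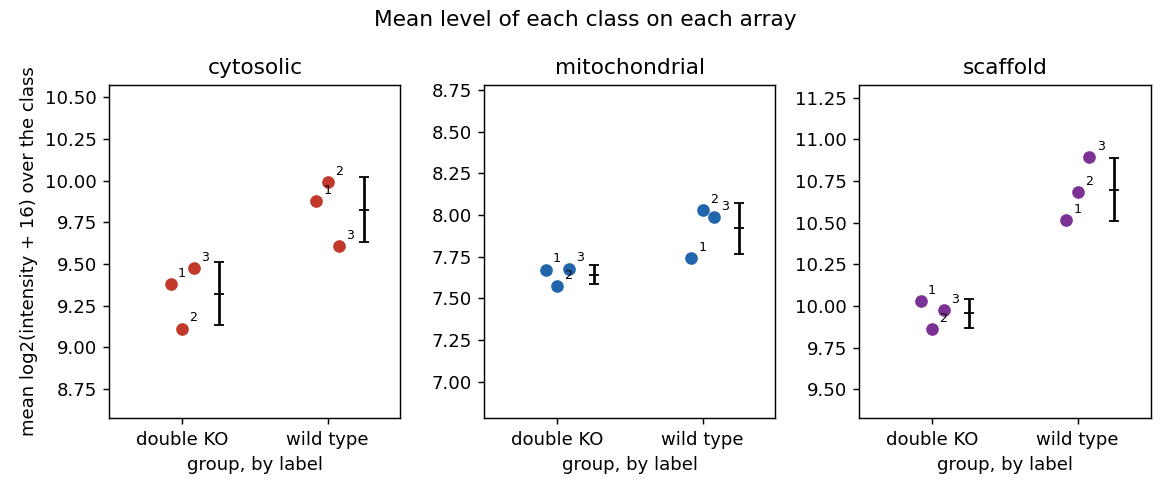
Mean of log2 of intensity plus 16 over the tested genes of each class, for each array (points, numbered by replicate), with the mean and SD of the 3 arrays beside them. The arrays labelled double knockout lie at 9.11 to 9.48 (cytosolic), 7.57 to 7.68 (mitochondrial) and 9.86 to 10.03 (scaffold), below the arrays labelled wild type in each panel. Heights are not comparable between panels.

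Over each class as a whole, the arrays labelled double knockout lay below those labelled wild type. The mean log2 level of the cytosolic genes was 9.38, 9.11 and 9.48 on the arrays labelled double knockout, against 9.88, 9.99 and 9.61 on those labelled wild type, a difference of -0.50. For the mitochondrial genes it was 7.67, 7.57 and 7.68 against 7.74, 8.03 and 7.99, a difference of -0.28. Over all genes tested it was 7.46, 7.37 and 7.44 against 7.38, 7.48 and 7.36, and the groups overlapped.

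The 2 compartments were compared through the cytosolic minus the mitochondrial mean on each array. This was 1.71, 1.54 and 1.80 on the arrays labelled double knockout and 2.14, 1.96 and 1.62 on those labelled wild type. Wild type replicate 3 lay within the range of the arrays labelled double knockout, so the groups overlapped, and the difference of -0.23 stood beside an SD of 0.13 and of 0.26 (n = 3 each). Without that array the groups did not overlap and the difference was -0.37. The differences were then -0.61 for the cytosolic and -0.24 for the mitochondrial genes. The median changes, in contrast, were smaller without that array, at -0.49 and -0.23, against -0.59 and -0.28 with it. Without wild type replicate 1 they were -0.60 and -0.38, and without wild type replicate 2 they were -0.50 and -0.28. A larger change of the cytosolic than of the mitochondrial set was not tested.

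**Figure D5:**
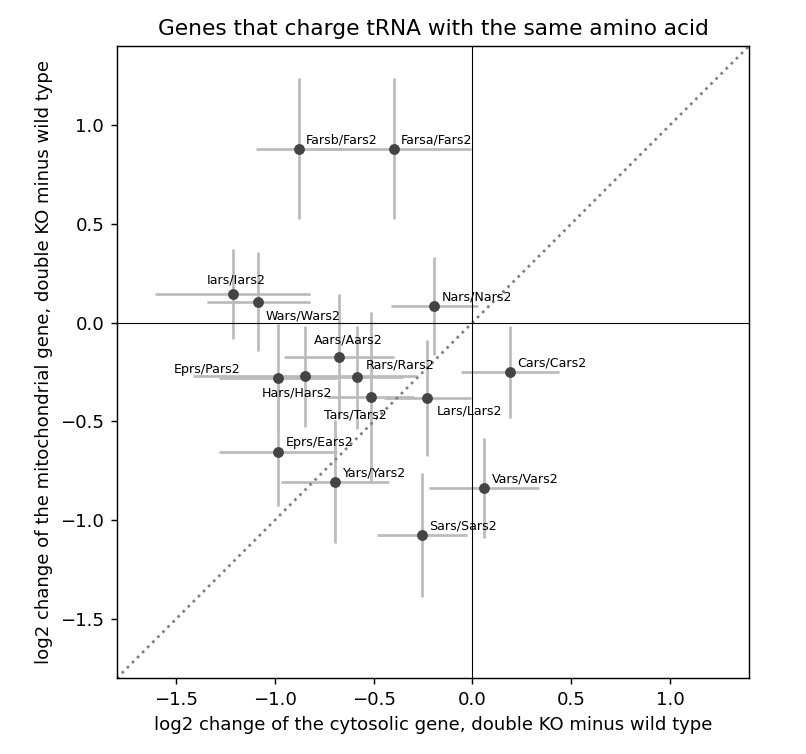
Log2 change of the mitochondrial gene (y) against that of the cytosolic gene (x) for the 16 pairs that use the same amino acid, with moderated SEs as bars and the line of equal change dotted. Of the 16 pairs, 11 lie above the line, where the cytosolic change is the lower, among them Farsb with Fars2 (-0.88 and 0.88) and Wars with Wars2 (-1.08 and 0.11). Each gene is shown by its brightest probe set. Other probe sets of Farsb gave -0.75, -0.65 and 0.43, and the other Wars2 probe set gave -0.31.

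Cytosolic and mitochondrial genes for the same amino acid were then set side by side. Of 16 pairs, 11 had the lower change in the cytosolic gene and the others in the mitochondrial gene. The ratio of the cytosolic to the mitochondrial signal was lower on all arrays labelled double knockout than on all labelled wild type in 3 pairs, Farsa and Farsb with Fars2 and Wars with Wars2. It was higher without overlap in 3 others, Cars with Cars2 (0.19 and -0.25), Sars with Sars2 (-0.26 and -1.07) and Vars with Vars2 (0.06 and -0.84). Of all single genes, 12.8% were lower and 13.4% higher without overlap, and the share for ratios of other gene pairs was not computed. The pairs of Farsa and Farsb share Fars2, Eprs stands in 2 pairs (with Ears2 and with Pars2), and these differences were not tested. They rest on the brightest probe set of each gene. Other probe sets of Farsb gave -0.75, -0.65 and 0.43, and the other Wars2 probe set gave -0.31. Sars2 read below the brightest bacterial control on double knockout replicates 2 and 3.

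Genes that start within 1000 bases of a member on the other strand were looked up after the members' values were seen. Aimp2 and the mismatch repair gene Pms2 start 162 bases apart in the RefSeq table, and Pms2 read 106, 117 and 117 on the arrays labelled double knockout and 103, 122 and 102 on those labelled wild type (change 0.03, SE 0.22, limma adjusted p = 0.956). Its groups overlapped, in contrast to those of Aimp2. Sars2 starts 147 bases from Mrps12, a mitochondrial ribosomal protein gene, whose change was -0.05 (SE 0.24). Fars2 starts 286 bases from Lyrm4, which takes part in iron-sulphur cluster assembly and had a change of -0.65 (SE 0.23, limma adjusted p = 0.129) beside the 0.88 of Fars2. None of the 8 such neighbours tested passed.

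Genes that act on tRNA before or after charging were examined next. Of 51 genes of tRNA maturation and modification, 9 fell and 0 rose, with a median change of -0.27, where 2.84% of all genes fell and 4.14% rose. The same shares of all genes apply to the lists that follow. Xpot, the exportin that carries tRNA out of the nucleus, read 446, 380 and 338 on the arrays labelled double knockout, against 1024, 1016 and 934 on those labelled wild type (change -1.34, SE 0.23, limma adjusted p = 0.006). The groups lay far apart, as they did for Trmt10a, a tRNA methyltransferase, with 97.0, 88.6 and 101 against 254, 224 and 279 (change -1.28, SE 0.22). Pus7, a pseudouridine synthase (-1.48, SE 0.29), and Mettl1, the catalytic subunit of the tRNA 7-methylguanosine methyltransferase (-1.14, SE 0.23), fell too. None of 8 tested genes of trans-editing and mitochondrial charging helpers passed (median -0.36). That list includes Qrsl1, a subunit of the amidotransferase that makes mitochondrial glutaminyl-tRNA, at -0.56 (SE 0.22, limma adjusted p = 0.169).

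Of the genes further along translation, 1 of 9 elongation factor genes fell and 0 rose, with a median of -0.44. It was Eif5a, the hypusinated elongation factor (-0.77, SE 0.18, limma adjusted p = 0.0245). None of 23 genes of RNA polymerase III and its factors, which transcribe the tRNA genes, passed (median -0.17), and Polr3e had a change of -0.81 (SE 0.27, limma adjusted p = 0.112). Of the MYC network, 1 of 10 fell and 1 rose. Myc fell, with 278, 230 and 299 on the arrays labelled double knockout against 1100, 1121 and 808 on those labelled wild type (change -1.86, SE 0.25, limma adjusted p = 0.00146). Mxd4, which encodes an antagonist that also binds MAX, rose, with 3130, 3370 and 3116 against 1094, 1258 and 1020 (change 1.49, SE 0.20, limma adjusted p = 0.00181).

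Genes of the ATF4 and amino acid response moved in both directions. Of 25 tested, 4 fell and 3 rose, against 2.84% and 4.14% of all genes, with a median of -0.27. Trib3, a pseudokinase induced by ATF4, rose, with 200, 133 and 156 on the arrays labelled double knockout against 14.8, 23.3 and 10.4 on those labelled wild type (change 2.46, SE 0.27, limma adjusted p = 0.000528). The cystine transporter gene Slc7a11 (1.57, SE 0.29) and the mTORC1 inhibitor gene Ddit4 (2.38, SE 0.47) rose as well. Slc7a5, which encodes a transporter of large neutral amino acids, fell, with 137, 76.2 and 82.0 against 298, 216 and 333 (change -1.42, SE 0.28). The 3 other genes that fell, named after their values were seen, were the arginine and lysine transporter gene Slc7a1 (-1.99, SE 0.40), the mitochondrial serine hydroxymethyltransferase gene Shmt2 (-2.36, SE 0.51) and the asparagine synthetase gene Asns (-1.09, SE 0.28). The 3 members with a C/EBP-ATF response element in the window shown above, Aars, Gars and Tars, had changes of -0.68, -0.78 and -0.52. None of the 3 passed (limma adjusted p = 0.191, 0.108 and 0.209), and the median over all 17 cytosolic genes was -0.59. A part of ATF4 in these changes was not tested.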

How the data were processed

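The authors deposited 1 linear intensity for each of 45101 probe sets and 6 arrays. The scanner software and probe summary are not stated in the labels. The mean of the middle 96% of values is 150.0 on each array, so arrays had been scaled alike. After 64 control probe sets were left out, 34945 of 45037 had 1 gene symbol in the platform annotation, 932 several and 9160 none here. Symbols were updated by Entrez identifier through the RefSeq table of GRCm38.p6 (34741 matched).

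An offset of 16 was added, log2 taken, and each array centred on its median, because array medians differed by 0.126. Probe sets under the 40th percentile of mean log2 value (4.87, an intensity of 13.2) were left out, which kept 27022. Each gene was represented by its brightest probe set, giving 13187 genes. Limma 3.58.1 in R 4.3.3 (lmFit, eBayes with an intensity trend) gave changes, moderated SEs and Benjamini-Hochberg adjusted p-values over all genes, at 0.05. For other probe sets, p-values were adjusted over all probe sets tested. A first version took gene p-values from the fit over all probe sets; it was replaced after its output was seen, calls the same 4 members and stands as an added alternative. The fit was tested on simulated data. The number of arrays limits precision.

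Every member may be named. Of each other list, up to 4 genes of smallest p past the threshold are named, or the 1 of smallest p where none passed. Slc7a1, Shmt2 and Asns were named beyond this rule, after their values were seen. The members, lists and tests were chosen with earlier results of these data known. No test was made over a list. Replicate numbers did not pair the arrays (correlations of deviations -0.0583, -0.165 and -0.334 for numbers 1, 2 and 3). Alternatives were no centring, quantile normalization, other offsets and filters, no trend, array weights, a replicate block, other probe set rules, a granulocyte covariate and each array left out.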

Additional observations from a re-analysis of the deposited data

How the results depend on the processing

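The calls of Aimp2 and Eef1e1 held under 16 and 17 of 19 alternatives, those of Wars and Farsb under 12 and 9, and the changes of Aimp2, Eef1e1 and Wars were negative under all 19. Over the array the count of changed genes was 920. It was 985 with p-values from the fit over all probe sets, the first version, which the main fit replaced after its output was seen. The count was 2909 with array weights (10.8% lower, 11.3% higher) and 1680 with the granulocyte covariate. With the replicate block it was 369, and with an array left out it was 279 to 1903. For the cytosolic genes the count of 2 became 9 with array weights (8 lower, 1 higher), 8 with the granulocyte covariate, 1 without the filter, without the trend and with the mean of probe sets, 0 with the replicate block and with probe sets of the kinds marked _x_ and _s_ put last, and 0 to 8 with an array left out. For the mitochondrial genes the count of 0 became 3 with array weights and 2 with the granulocyte covariate, and 0 to 2 with an array left out. For the scaffold genes the count of 2 became 0 with the replicate block, and 0 to 2 with an array left out. The median change stayed between -0.65 and -0.46 for the cytosolic and between -0.38 and -0.17 for the mitochondrial genes.

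The replicate block leaves fewer degrees of freedom, and the replicate numbers share only a number. Beyond that the causes were not tested. Of 703 values of single genes under alternatives, 15 changed sign. Farsb gave 0.43 when probe sets of the kinds marked _x_ and _s_ came last. With array weights Nars gave 0.0045, Aars2 0.12 and Nars2 -0.039. With the granulocyte covariate Nars2 gave -0.10 and Wars2 -0.0058, and with the mean of probe sets Iars2 gave -0.011 and Wars2 -0.10. With an array left out, Vars ranged from -0.10 to 0.30, Aars2 from -0.42 to 0.13, Nars2 from -0.10 to 0.22, Tars2 from -0.83 to 0.052 and Wars2 from -0.051 to 0.26. Genes near the level of the bacterial controls (19.0 to 29.9), such as Sars2, have changes that signal over background limits.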
